A study of Mus musculus with 2 samples.

Results

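The signalling route that runs from cytokine receptors through JAK2 to STAT5 was described here by the transcripts of 7 genes, *Jak2*, *Stat5a*, *Stat5b*, *Cish*, *Socs2*, *Pim1* and *Osm*, in mouse bone marrow cells. They were found by gene symbol among the 32285 genes of both count matrices, and all 7 were present in both libraries. When a cytokine such as erythropoietin, thrombopoietin or GM-CSF binds its receptor, the kinase JAK2 on the receptor tail phosphorylates STAT5A and STAT5B, which pair, enter the nucleus and bind DNA. CISH and SOCS2, of the suppressor of cytokine signalling family, are induced by this route and damp the receptor. PIM1 is a survival kinase and oncostatin M (OSM) a secreted cytokine of the interleukin-6 family, both also known as STAT5 targets. In marrow STAT5 is best known for its roles in red cell, lymphocyte and stem cell growth. Transcript levels do not report phosphorylation of the proteins.

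The study asked how the serine/threonine kinase MAP4K4 bears on the formation of neutrophils. Marrow came from mice aged 13 to 14 weeks on a C57BL/6 background. The cKO animals were Mx1-Cre *Map4k4* f/f, and the floxed alleles were deleted by poly I:C injections weeks before the experiment. The Ctrl animals were littermates whose genotype is written Mx1-Cre Map4k4-/- in the methods and "control" in the labels. All groups therefore carried Mx1-Cre, an interferon-inducible driver that is not restricted to 1 lineage. Whether the Ctrl mice received poly I:C, and how many mice stood behind each library, is not given in the sources used here. In each group 2 parts of c-Kit+ cells, isolated with magnetic beads, were mixed with 3 parts of marrow cleared of red cells, and 1 droplet 3′ library of unique molecular identifiers (UMIs) was made from the mixture. With 1 library per group no difference between the groups can be tested, and every interval below is a 95% interval that covers counting error only.

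There were 71527701 UMIs over 10220 barcodes in Ctrl and 64393950 UMIs over 6872 barcodes in cKO. Of these, 7668 and 4433 cells were placed in 1 of 17 classes by marker genes that include none of the 7 genes, and 9 classes with at least 20 cells in both libraries were compared. The classes carry the names of their markers with "-like" added. Their own markers made up 2 to 8 of the 10 leading genes of each compared class, except plasma-like cells of the Ctrl library, which were led by immunoglobulin genes and had 1. The B-like markers include the MHC class II genes *H2-Aa* and *H2-Ab1*, and *Cd74*. No class was set for conventional dendritic cells, a type the paper names among its marrow cells. Whether such cells are among the B-like cells was not tested. Cells past the immature neutrophil (imNeu) markers were split by a list of cell cycle genes, *Fcnb* and *Serpinb1a* into cycling and non-cycling imNeu-like cells. For the cycling class the imNeu markers counted as its own. Of the split list only *Fcnb* was among its 10 leading genes in either library. The cell division genes *Ube2c* and *Spc25*, outside the list, were among them in cKO and not in Ctrl. The cycling class may thus hold unlike mixes of cells in the 2 libraries, which was not tested. The split required at least 3 genes of the list, and it also followed depth. Cycling cells had a median of 10795 UMIs against 4753.5 in non-cycling cells of Ctrl, and 19432.5 against 10938 in cKO. The cKO cells were read more deeply, with a median of 6199 against 2409 UMIs in mature neutrophil (mNeu)-like cells and 24241 against 14872 in megakaryocytic-erythroid progenitor (MEP)-like cells. The 2 files shared 3010 barcode strings, and all 17092 barcodes began with AA. Over these shared strings the Pearson correlation of log10 UMIs was 0.22, and whether any cell is present in both files was not tested. *Map4k4* itself stood at 68.4 CPM (UMIs scaled to a common total, in the usual CPM unit; interval 66.4 to 70.5) over gated cells of the Ctrl library and at 60.0 CPM (58.0 to 62.0) in the cKO library. In ProNeu-like cells it was higher in the cKO library, at 22.2 against 16.9 CPM. By RT-PCR the paper reports that the transcript was lost from stem and progenitor cells of cKO mice. Among HSC/MPP-like cells, the stem cells and multipotent progenitors, the level here was 115 CPM in cKO against 125 in Ctrl. Their log2 ratio was -0.12 (-0.37 to 0.13). A 3′ count can still see a transcript with a deleted exon, so this level does not check the deletion, and "cKO" and "Ctrl" below mean the libraries labelled so.

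*Jak2* (chr19:29251828-29313080 on the plus strand of GRCm38) encodes the receptor-bound kinase at the head of the route. Among the 9 compared classes its level was highest in B-like cells, at 96.4 CPM in the Ctrl library (79.3 to 116) and 81.4 CPM in the cKO library (47.4 to 130). The next levels in the Ctrl library were 59.2 CPM in MEP-like, 53.0 in monocyte-like and 52.4 in HSC/MPP-like cells, where HSC/MPP stands for stem cells and multipotent progenitors. Plasma-like cells were lowest in both libraries, at 17.6 and 12.2 CPM. Basophil/mast-like cells, of which the libraries held 41 and 17, stood above all of these, with 164 CPM (123 to 215) and 127 CPM (82.3 to 188). Of the 8 pairs of neighbours in this order, 2 in the Ctrl library and 3 in the cKO library differed beyond their counting interval, so the middle of the order is not resolved.

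*Stat5a* and *Stat5b* lie side by side on chromosome 11, with 8626 bases between the annotated genes. *Stat5a* (chr11:100859351-100885169) is on the plus strand and *Stat5b* (chr11:100780731-100850724) on the minus strand. The annotated coding transcripts share 608 windows of 50 bases, which is 14.7% of the *Stat5a* windows and 11.1% of those of *Stat5b*, and a read that lies in 1 of them cannot be given to either gene. Of the shared windows 60 lay in the last 500 bases, the end nearest to where a 3′ library reads. The share of reads lost this way was not measured.

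Of the compared classes, HSC/MPP-like cells had the highest *Stat5a* level in both libraries, with 60.7 CPM (53.7 to 68.3) in Ctrl and 76.4 CPM (63.3 to 91.5) in cKO. MEP-like cells came next among these classes, with 50.9 and 47.4 CPM. Outside them, the 52 and 11 megakaryocyte-like cells stood at 51.9 CPM (38.4 to 68.7) from 49 UMIs in Ctrl and at 69.6 CPM (39.0 to 115) from 15 UMIs in cKO. Along the neutrophil classes the level in the Ctrl library was 23.5 CPM in ProNeu-like cells, the neutrophil progenitors, 10.6 in cycling and 11.7 in non-cycling imNeu-like cells, and 12.7 among mNeu-like cells. The cKO library gave 20.4, 6.43, 6.4 and 7.89 CPM in the same order. In both libraries the *Stat5a* level dropped from stem cells to immature neutrophils and stayed low in mature ones. From HSC/MPP-like to mNeu-like cells it was 4.77-fold lower in Ctrl and 9.69-fold lower in cKO.

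*Stat5b* ran differently. Among the 9 compared classes it was highest in mNeu-like cells of both libraries, with 119 CPM (109 to 129) in Ctrl and 87.8 CPM (81.7 to 94.3) in cKO, followed by HSC/MPP-like cells with 83.7 and 64.9 CPM. Outside these classes, the 46 and 12 macrophage-like cells stood at 111 CPM (57.1 to 193) from 12 UMIs in Ctrl and at 117 CPM (24.2 to 343) from 3 UMIs in cKO. The lowest neutrophil level was in ProNeu-like cells, at 31.6 CPM in Ctrl and 17.3 CPM in cKO. *Stat5b* then stood at 35.2 and 25.3 CPM in cycling imNeu-like cells and at 43.4 and 32.9 CPM in non-cycling imNeu-like cells. From ProNeu-like to mNeu-like cells the *Stat5b* level was 3.76-fold higher in Ctrl and 5.07-fold higher in cKO, while that of *Stat5a* was 1.85-fold and 2.59-fold lower. Monocyte-like cells held 71.5 and 53.2 CPM of *Stat5b*.

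**Figure D1:**
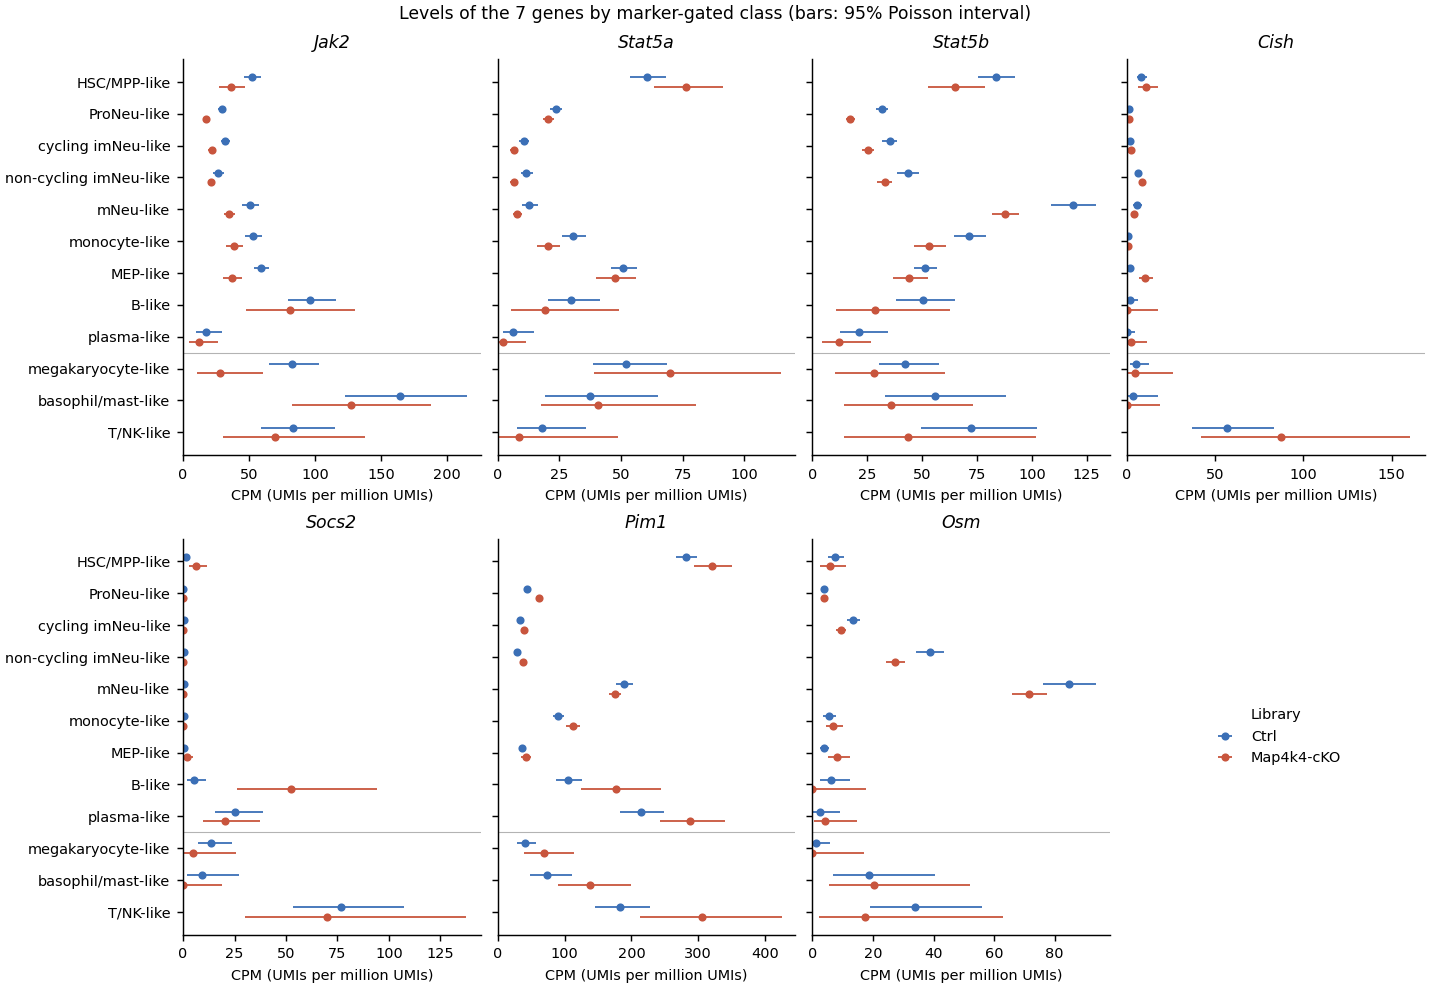
Level of each gene in CPM (x axis, linear, from 0) in the 9 compared classes and, below the grey line, in 3 classes with under 20 cells in the cKO library; points are the 2 libraries and bars their 95% Poisson intervals. Stat5a and Pim1 are highest in HSC/MPP-like cells among the 9 classes, Stat5b and Osm in mNeu-like cells, and Cish in T/NK-like cells below the line.

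The share of *Stat5a* among all *Stat5a* and *Stat5b* UMIs set the 2 genes against each other within the same cells. Since 3′ UMIs depend on how well each 3′ end is captured, the share is read across classes and not as which gene is more abundant. In the Ctrl library it was 49.7% (Clopper-Pearson interval 46.1 to 53.4) in MEP-like cells, 42.0% (38.2 to 45.9) among HSC/MPP-like and 42.6% (39.3 to 46.0) in ProNeu-like cells. It then dropped to 23.1% in cycling and 21.2% in non-cycling imNeu-like cells, and reached 9.68% (7.41 to 12.4) among mNeu-like cells. The cKO library followed the same course, with 51.8%, 54.1%, 54.1%, 20.3%, 16.3% and 8.24% in these 6 classes. The 2 libraries stood apart in HSC/MPP-like cells, where the cKO interval was 47.3 to 60.8%, and in ProNeu-like cells, where it was 49.9 to 58.2%. In the other 6 compared classes with a share in both libraries, the intervals overlapped. In ProNeu-like cells this came with a *Stat5b* level 0.87 lower on the log2 scale in cKO beside a *Stat5a* level 0.20 lower.

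**Figure D2:**
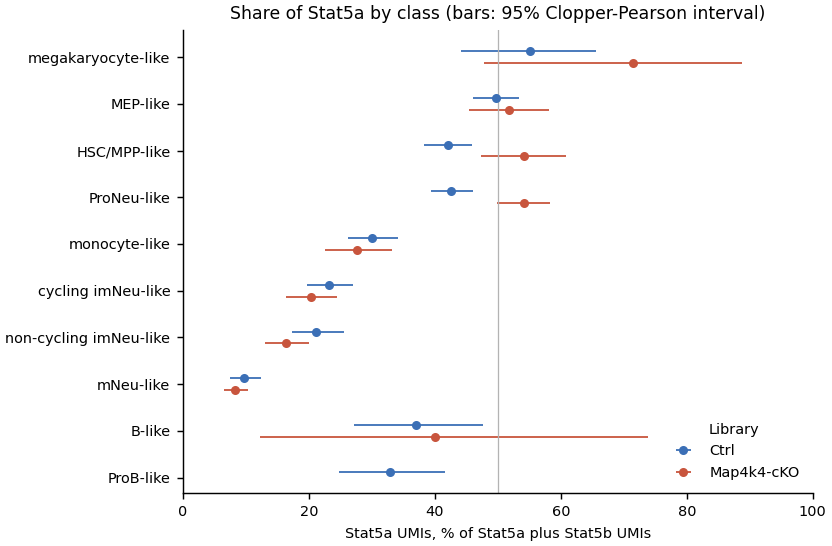
Stat5a UMIs as a percentage of Stat5a plus Stat5b UMIs (x axis, 0 to 100%) by class in both libraries, with 95% Clopper-Pearson intervals; the grey line marks equal UMIs. The share is near 50% in MEP-like cells and 9.68% and 8.24% in mNeu-like cells.

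*Cish* (chr9:107296026-107302784, plus strand) encodes an SH2 protein that binds activated cytokine receptors, and its promoter is the classical STAT5-responsive one. It is shown here because its 300 bases hold the motif TTCNNNGAA, a sequence that reads the same on both strands and that STAT5 pairs bind, at 2 places. The bases run from 250 before to 50 after the RefSeq start on the plus strand of GRCm38.p6, chr9:107296409-107296708, and capitals mark the motifs:
Cish: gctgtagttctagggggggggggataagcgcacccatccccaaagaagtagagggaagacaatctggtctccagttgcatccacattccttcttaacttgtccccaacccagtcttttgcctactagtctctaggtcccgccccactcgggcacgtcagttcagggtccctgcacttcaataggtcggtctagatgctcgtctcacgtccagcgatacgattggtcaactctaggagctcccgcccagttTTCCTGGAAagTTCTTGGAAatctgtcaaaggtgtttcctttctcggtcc
The 2 matches begin at the start site itself and 11 bases after it. Of 32851 RefSeq promoters of this length, 8.30% held the motif at least 1 time and 0.457% at least 2 times. RefSeq gave 8 promoters for 5 of the 7 genes (*Jak2*, *Stat5a*, *Stat5b*, *Cish* and *Pim1*), and those of the other 4 genes held no match in this window. A match is a string of letters and not a binding site seen in these cells.

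The highest level of *Cish* was in T/NK-like cells, with 56.5 CPM (36.6 to 83.5) from 25 UMIs in Ctrl and 87.3 CPM (41.9 to 161) from 10 UMIs in cKO. ProB-like cells, nearly all of them in the Ctrl library, held 16.8 CPM there (11.7 to 23.5). Among the 9 compared classes HSC/MPP-like cells had the highest value, with 8.11 and 10.9 CPM, but did not stand apart from the next class, non-cycling imNeu-like cells in Ctrl (log2 0.33, -0.34 to 0.98) and MEP-like cells in cKO (0.07, -0.89 to 0.98). Along the neutrophil classes *Cish* was at 0.953 and 0.855 CPM in ProNeu-like cells, 1.44 and 2.22 CPM in cycling imNeu-like cells, 6.46 and 8.30 CPM in non-cycling imNeu-like cells and 5.58 and 3.94 CPM in mNeu-like cells. In both libraries the step from cycling to non-cycling imNeu-like cells was a rise, of 2.16 on the log2 scale in Ctrl (1.33 to 3.06) and 1.90 in cKO (1.28 to 2.56). These classes also differ in depth, and the part of depth in this step was not tested. Monocyte-like cells had 4 and 1 UMIs, and 0.630% and 0.345% of these cells held 1, a low share that is set beside those of MEP-like cells below.

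*Socs2* (chr10:95385362-95417180, minus strand) encodes the other feedback inhibitor, known for restraining growth hormone receptor signalling. ProB-like cells held 101 CPM (88.0 to 116) in the Ctrl library, where 105 of 355 cells had a UMI, and T/NK-like cells held 76.9 and 69.9 CPM. Plasma-like cells had 25.2 CPM in Ctrl and 20.3 CPM in cKO. In the neutrophil and monocyte classes the 2 libraries gave 13 and 2 UMIs in all. The cKO library showed 0 UMIs in 1037 non-cycling imNeu-like cells, which allows a share of cells with a UMI of up to 0.289%, taken as 3 counts of the total (the Clopper-Pearson upper bound is 0.355%). Over all gated cells *Socs2* stood at 4.87 CPM in Ctrl and 0.935 CPM in cKO, and ProB-like cells, which supplied 205 of the 306 Ctrl UMIs, numbered 355 in Ctrl and 3 in cKO.

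*Pim1* (chr17:29490753-29496112, plus strand), the survival kinase, stood at 80.9 CPM in Ctrl and 82.4 CPM in cKO over all gated cells. HSC/MPP-like cells were highest, with 282 CPM (267 to 298) in Ctrl and 321 CPM (293 to 350) in cKO. Plasma-like cells followed with 214 and 288 CPM. The level dipped in the middle of the neutrophil classes and came back at the end. It was 43.5 and 62.0 CPM in ProNeu-like cells, 33.4 and 39.4 CPM in cycling imNeu-like cells, 29.5 and 38.1 CPM in non-cycling imNeu-like cells and 189 and 175 CPM in mNeu-like cells. The last step was a 6.42-fold higher level in Ctrl and a 4.60-fold higher level in cKO. Outside the compared classes, ProEry-like cells, the erythrocyte progenitors, held 250 CPM (200 to 308) in 71 Ctrl cells and 189 CPM (122 to 279) in 10 cKO cells. T/NK-like cells held 183 CPM (145 to 228) in 124 Ctrl cells and 306 CPM (213 to 425) in 19 cKO cells.

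*Osm* (chr11:4236420-4241026, plus strand) encodes the cytokine of the group. It climbed along the neutrophil classes of both libraries. In Ctrl it was 3.94 CPM in ProNeu-like, 13.4 in cycling imNeu-like, 38.7 in non-cycling imNeu-like and 84.6 in mNeu-like cells (76.3 to 93.6). The cKO library gave 3.88, 9.28, 27.3 and 71.6 CPM (66.0 to 77.4). From ProNeu-like to mNeu-like cells *Osm* was 21.5-fold higher in Ctrl and 18.4-fold higher in cKO, and each of the 3 steps had an interval above 0 in both libraries. *Osm* UMIs were also set against those of *Retnlg*, an abundant mNeu marker. There were 2.50 and 1.84 *Osm* UMIs per 1000 *Retnlg* UMIs in mNeu-like cells, 25.8 and 8.69 among non-cycling imNeu-like, 32.7 and 13.6 among HSC/MPP-like and 96.8 and 58.8 in T/NK-like cells. The lowest Ctrl ratios outside mNeu-like cells were 4.67 in plasma-like and 4.85 in pDC-like cells, from 2 and 1 *Osm* UMIs, and B-like, pDC-like, megakaryocyte-like and macrophage-like cells of cKO held 0. The part of free RNA in these levels was not tested. Of the receptor chains that OSM uses, *Osmr* was at 0 UMIs in all 16 classes with at least 50 cells over both libraries, and *Il6st*, the shared signalling chain, was highest in monocyte-like cells, at 109 and 81.1 CPM, and at 12 and 10.9 CPM in HSC/MPP-like cells. *Lifr*, the receptor chain for leukaemia inhibitory factor, stood at 262 and 127 CPM in pDC-like cells, from 101 and 8 UMIs.

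**Figure D3:**
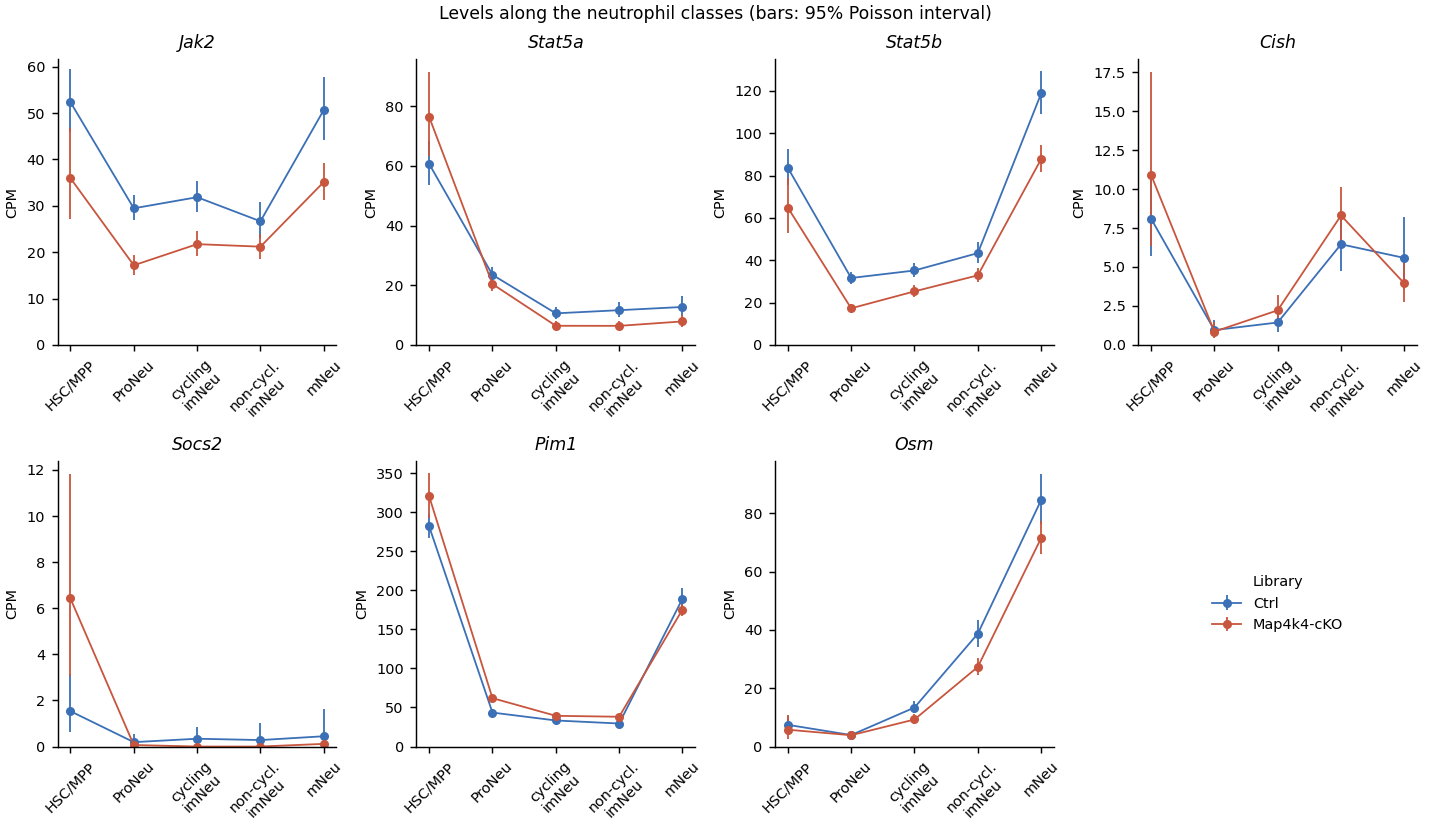
Level in CPM (y axis, linear, from 0) in HSC/MPP-like cells and the 4 neutrophil classes (x axis) for each gene in both libraries, with 95% Poisson intervals; lines join classes for reading only. Stat5a drops to 7.89 CPM (cKO) and 12.7 CPM (Ctrl) in mNeu-like cells, Osm climbs to 71.6 and 84.6 CPM, and Pim1 dips before mNeu-like cells.

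The order of the 9 classes was much alike in both libraries. The class with the highest level was the same for 6 of the 7 genes, the exception being *Socs2*, which was led by plasma-like cells in Ctrl and by B-like cells in cKO. That class stood apart from the next beyond the counting interval in both libraries for *Jak2*, *Stat5a*, *Stat5b* and *Osm*, in Ctrl alone for *Pim1* and in neither for *Cish*. Spearman's rho between the libraries over the 9 classes, given as a description over classes that share their library, was 0.98 for *Stat5b* and *Pim1*, 0.97 for *Jak2*, 0.93 for *Stat5a*, 0.85 for *Socs2*, 0.65 for *Osm* and 0.62 for *Cish*.

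The cKO library was then compared with the Ctrl library within each class. A pair of gene and class entered where both libraries together held at least 10 UMIs, and was called past 2-fold. Of 63 pairs 51 entered, and 4 were called higher in cKO and 0 lower. That is 7.84% and 0% of the pairs, where over all genes and the same classes 2.25% of pairs were called higher and 13.3% lower. The higher pairs were *Cish* and *Osm* in MEP-like cells, where 1.76% of all genes were called higher, *Socs2* in HSC/MPP-like cells, where 2.56% were, and *Socs2* in B-like cells, where 7.14% were. All 4 rest on few UMIs. The median log2 ratio of all tested genes lay below 0 in each of the 9 classes, from -0.10 in HSC/MPP-like to -0.51 in plasma-like cells, and was -0.50 in mNeu-like cells. A log2 ratio below 0 is therefore the common case, and values relative to the class median are given beside the ratios.

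*Jak2* and *Stat5b* were lower in cKO in 9 of 9 classes by totals, and in 7 of 9 each when the libraries were scaled by the median of ratios within a class. By totals most tested genes were lower in every class, from 58.3% of them in HSC/MPP-like to 84.9% in non-cycling imNeu-like cells. For *Jak2* the log2 ratio ran from -0.78 in ProNeu-like cells (-1.0 to -0.56) to -0.25 in B-like cells (-1.08 to 0.50), and 7 of the 9 intervals lay below 0. Relative to the class median it ran from -0.49 in MEP-like to 0.11 among non-cycling imNeu-like cells, and 8 of 9 values were below the median. For *Stat5b* the ratio ran from -0.87 in ProNeu-like cells (-1.09 to -0.65) to -0.22 in MEP-like cells (-0.53 to 0.08), and 6 of 9 intervals lay below 0. Relative to the median it was -0.57 in ProNeu-like cells, a value below which 8.67% of the genes tested there lay, and 0.06 in mNeu-like cells. The lower *Stat5b* level of mNeu-like cells, 87.8 against 119 CPM, was thus no lower than that of the median gene. Among mNeu-like cells of 3000 to 10000 UMIs, 550 in Ctrl and 948 in cKO, it was 99.3 against 104 CPM, a log2 ratio of -0.07 (-0.29 to 0.15). In ProNeu-like cells over 10000 UMIs the *Stat5b* ratio was -0.91 (-1.14 to -0.68) and the *Jak2* ratio -0.78 (-1.01 to -0.55). At 3000 to 10000 UMIs (147 and 53 cells) they were -0.51 (-1.82 to 0.60) and -2.15 (-5.25 to -0.17), the latter from 31 and 2 UMIs. In the 73 and 189 cells of 1000 to 3000 UMIs they were 0.33 (-1.22 to 2.16) and 0.43 (-1.57 to 2.95), from 3 to 14 UMIs each, so the lower levels were resolved for *Stat5b* only in the deepest cells.

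*Stat5a* was lower in cKO in 7 of the 8 classes that entered, with the lowest ratio, -0.86 (-1.34 to -0.39), in non-cycling imNeu-like cells. Under median-of-ratios scaling it was lower in 5 of 8. HSC/MPP-like cells were the exception, at 0.33 (0.01 to 0.65), and 82.0% of the genes tested in these cells had a lower ratio. Relative to the class medians 5 of the 8 values were below.

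*Pim1* was the only 1 of the 7 genes that lay above the class median in all 9 classes. Its log2 ratio was highest in B-like cells at 0.75 (0.18 to 1.29) and in ProNeu-like cells at 0.51 (0.37 to 0.66), and it was -0.11 (-0.23 to 0.01) in mNeu-like cells. In 7 of 9 classes the interval lay above 0. Relative to the median the values ran from 0.28 in HSC/MPP-like to 0.98 in B-like cells, and none of the 9 ratios reached 2-fold. The share of tested genes with a lower ratio than *Pim1* was highest in ProNeu-like cells, at 96.1%. It was 78.5% in mNeu-like and 76.7% in MEP-like cells, and lowest in HSC/MPP-like cells, at 72.4%. At 3000 to 10000 UMIs per cell the ratio was 1.10 (0.78 to 1.43) in non-cycling imNeu-like cells, and mNeu-like cells gave 0.59 (0.40 to 0.77). It was -0.35 (-1.27 to 0.47) in the 147 and 53 ProNeu-like cells of that depth. Over 10000 UMIs it was 0.42 (-0.18 to 1.09) in non-cycling imNeu-like, 0.31 (0.09 to 0.54) in cycling imNeu-like and 0.54 (0.39 to 0.69) in ProNeu-like cells. At 1000 to 3000 UMIs it was 0.12 (-0.22 to 0.44) in mNeu-like and 0.63 (-0.62 to 1.73) in non-cycling imNeu-like cells.

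**Figure D4:**
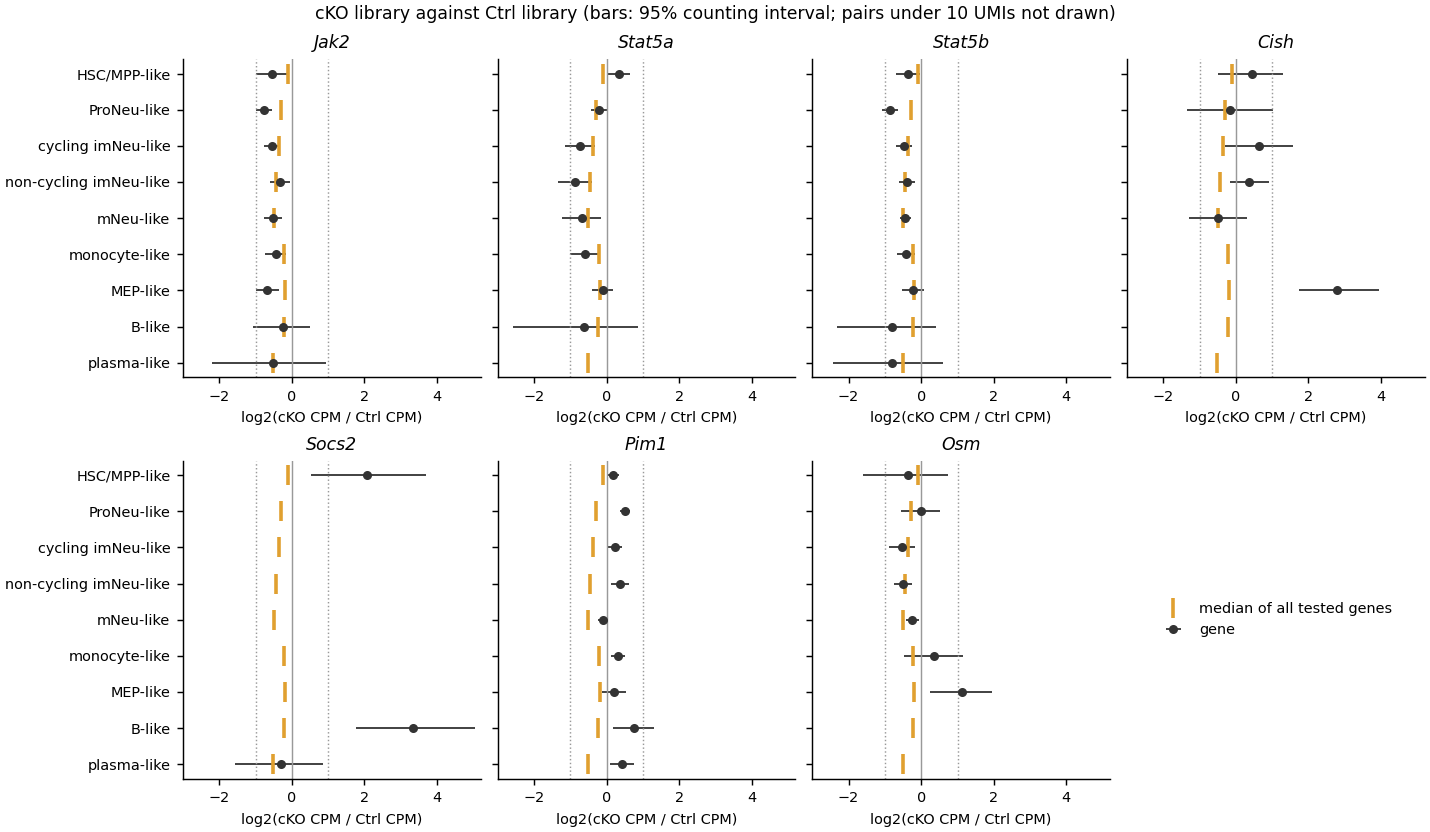
Log2 ratio of CPM, cKO over Ctrl (x axis), by class for each gene, with 95% counting intervals; orange ticks are the median of all tested genes in the class and dotted lines mark 2-fold. Pim1 lies right of the orange tick in all 9 classes, and Cish in MEP-like cells and Socs2 in HSC/MPP-like and B-like cells lie beyond the dotted line.

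The highest ratio for *Cish* was in MEP-like cells. *Cish* was at 1.5 CPM there in Ctrl (0.749 to 2.69), from 11 UMIs in 11 of 410 cells, and at 10.4 CPM in cKO (6.98 to 15.0), from 29 UMIs in 20 of 97 cells. The log2 ratio was 2.79 (1.75 to 3.94), and 99.9% of the tested genes lay below it. The shares of cells with a UMI were 2.68% and 20.6%. Those of monocyte-like cells, at median depths of 6957 and 11824 UMIs, were 0.630% and 0.345%. HSC/MPP-like cells had 6.11% and 13.8%, and non-cycling imNeu-like cells 3.29% and 7.81%. The Ctrl MEP-like share was below these and the cKO share above them. The other compared classes lay below MEP-like cells in both libraries. With cells thinned to a common depth, the MEP-like shares were 0.244% (0.00617 to 1.35) and 0% (0 to 3.73), which does not separate the libraries. Since the cKO cells were deeper, cells of at least 20000 UMIs were set side by side, 155 in Ctrl and 53 in cKO. They held 3 and 27 *Cish* UMIs, or 0.564 (0.116 to 1.65) and 10.5 (6.94 to 15.3) CPM, a log2 ratio of 4.22 (2.52 to 6.59). The 255 and 44 cells under 20000 UMIs held 8 and 2 *Cish* UMIs, or 3.98 (1.72 to 7.84) and 9.08 (1.10 to 32.8) CPM, so their intervals overlapped and the ratio was 1.19 (-2.08 to 3.51). Among cells with a UMI of *Epor*, the erythropoietin receptor, *Cish* was at 1.43 and 10.6 CPM, from 9 and 28 UMIs. In the 164 and 37 cells without one there were 2 and 1 UMIs, too few to separate the libraries (log2 ratio 1.77, -4.11 to 6.03). A deeper cell is more likely to show an *Epor* UMI, so this split also follows depth and is not independent of the cut at 20000 UMIs.

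*Osm* in MEP-like cells was at 3.82 CPM in Ctrl from 28 UMIs and at 8.26 CPM in cKO from 23 UMIs, a log2 ratio of 1.11 (0.25 to 1.96). In cells of at least 20000 UMIs the *Osm* ratio was 1.12 (0.19 to 2.05). Under 20000 UMIs it was 0.38 (-5.11 to 3.34), from 7 and 1 UMIs, and without an *Epor* UMI it was 1.18 (-4.53 to 4.82). Those 2 subsets were too thin to separate the libraries. In MEP-like cells with under 100 imNeu marker UMIs per 10000, 354 in Ctrl and 71 in cKO, the ratios were 1.12 (0.23 to 1.98) for *Osm* and 2.76 (1.71 to 3.91) for *Cish*. *Retnlg*, a marker of mNeu-like cells alone, was at 264 and 283 CPM in MEP-like cells. The part of free neutrophil RNA in the *Osm* level of MEP-like cells was not tested. *Socs2* gave 3 and 6 UMIs in these cells, too few to enter. *Jak2* was lower there, at 37.0 against 59.2 CPM, a ratio of -0.68 (-1.0 to -0.37).

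The MEP-like cells of the 2 libraries differed in other genes too. *Kit*, the stem cell factor receptor on which the cells were enriched, was at 100 CPM in Ctrl and 48.1 CPM in cKO. The proliferation marker *Mki67* was at 1245 and 655 CPM, and the erythroid genes *Car1* and *Klf1* at 2137 and 2753 CPM and at 224 and 273 CPM. *Epor* was at 101 and 116 CPM. Other genes were near level. *Gata1*, a marker of the class, was at 137 and 144 CPM, a log2 ratio of 0.07 (-0.10 to 0.24). *Tfrc*, the transferrin receptor, was at 412 and 393 CPM, a log2 ratio of -0.07 (-0.17 to 0.03). Whether the *Cish* level goes with a different mix of stages within the class was not tested.

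**Figure D5:**
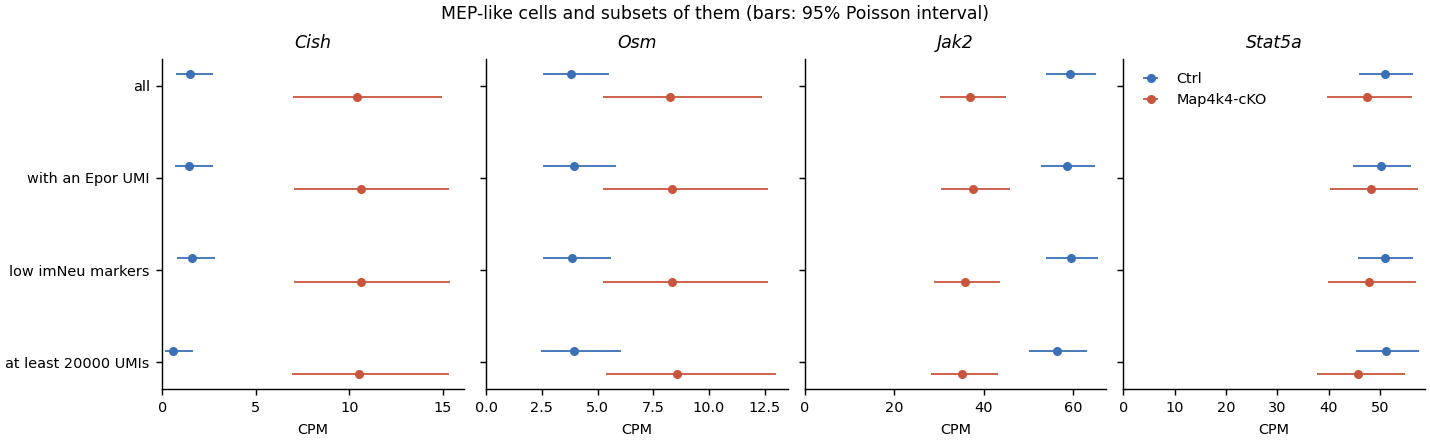
Levels in CPM (x axes, linear, from 0) of Cish, Osm, Jak2 and Stat5a in all MEP-like cells and in 3 subsets of them, in both libraries, with 95% Poisson intervals. The Cish intervals of the 2 libraries do not overlap in the 4 rows drawn, and in cells of at least 20000 UMIs the levels are 0.564 and 10.5 CPM; they overlap in cells under 20000 UMIs and in cells without an Epor UMI, which are not drawn.

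The 2 *Socs2* pairs were thinner still. In HSC/MPP-like cells *Socs2* had 7 UMIs in 7 of 458 Ctrl cells and 10 UMIs in 7 of 123 cKO cells, or 1.53 and 6.42 CPM, a log2 ratio of 2.07 (0.53 to 3.70). In B-like cells 6 UMIs lay in 4 of 357 Ctrl cells and 11 UMIs in 2 of 32 cKO cells, 8 of them in 1 cell, so the level of 52.7 CPM in cKO against 5.21 in Ctrl rests on 2 cells.

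The other genes of the route were counted in 3 lists: receptors, among them the OSM receptor chains (20 genes), other JAKs and negative regulators (16 genes), and other known STAT5 targets (16 genes). *Csf2rb2*, *Il7r*, *Il6st*, *Lifr*, *Osmr*, *Epor*, *Irf4*, *Gfi1b*, *Flt3*, *Socs3*, *Pim2*, *Pias2*, *Myc*, *Id1* and *Cdkn1a* are named here after their values were seen, the others by a rule on level and fold. In HSC/MPP-like cells, where 2.56% of all genes were called higher and 5.57% lower, 1 of 14 receptors (*Csf2rb2*), 1 of 16 regulators (*Socs3*) and 1 of 15 targets (*Pim2*) were called higher, and 1 regulator (*Pias2*) was called lower. In ProNeu-like cells, where 1.29% of all genes were called higher and 6.06% lower, the calls were 1 higher and 1 lower of 12 receptors, 1 higher of 16 regulators and 2 lower of 14 targets.

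Among immature and mature neutrophils the calls of the target list lay on the lower side. In cycling imNeu-like cells, where the background was 1.13% higher and 10.5% lower, 8 of 16 targets and 5 of 12 receptors were called lower and 1 target was called higher. In non-cycling imNeu-like cells (1.3% and 18.1%) 7 of 13 targets and 4 of 11 receptors were called lower. The median log2 ratio of the targets was -0.93 and -1.11 in these 2 classes, against -0.36 and -0.44 over all tested genes. In mNeu-like cells (1.73% and 23.8%) 5 of 13 targets and 3 of 11 receptors were called lower. The median of the targets was -0.62 there, against -0.50 over all tested genes. *Myc*, the growth regulator, was among the lower targets in all 3, at 7.71 and 2.30 CPM, 5.47 and 0.952 CPM, and 9.38 and 1.51 CPM in Ctrl and cKO. The list of other JAKs and negative regulators did not share this. Of its genes 0 of 16 were called in cycling imNeu-like cells. In non-cycling imNeu-like cells 0 of 16 were called lower and 1, *Socs3*, higher, and in mNeu-like cells 1 of 15 was called lower.

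Some of these lower calls rest on genes best known from other lineages. In cycling imNeu-like cells *Epor* had 11 UMIs in Ctrl and 0 in cKO, *Irf4*, a lymphoid transcription factor, 12 and 0, *Gfi1b*, an erythroid and megakaryocytic one, 23 and 0, and *Flt3*, a progenitor receptor, 24 and 2. Among mNeu-like cells *Epor* had 15 and 2 UMIs and *Flt3* 10 and 3. Markers of other classes were lower in the cKO neutrophil classes as well. All 10 MEP-like markers were lower there in cycling imNeu-like, non-cycling imNeu-like and mNeu-like cells, with a summed level of 64.5 to 135 CPM in Ctrl and 21.1 to 31.8 CPM in cKO, and of the 9 HSC/MPP-like markers 8 or 9 were lower. Of all tested genes 80.3%, 84.9% and 83.9% had a ratio below 0 in these classes, in the same order. Counts of lower markers are thus not far from the share of all genes. All 10 ProB-like markers were lower in these 3 classes, at 17.8 to 31.5 CPM summed in Ctrl and 0.260 to 2.14 CPM in cKO, and 5 to 8 of the 10 were at 0 UMIs in cKO against 0 in Ctrl. The 2 libraries held 410 and 97 MEP-like cells and 355 and 3 ProB-like cells. The part of these transcripts in the lower calls, and in the *Stat5a* and *Socs2* levels of these classes, was not tested.

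In monocyte-like cells (1.5% of all genes called higher, 8.2% lower) 7 of 15 targets, 2 of 12 receptors and 1 of 16 regulators were called lower, and 1 regulator was called higher. MEP-like cells had 3 of 15 targets called higher, *Ccnd2*, *Id1* and *Cdkn1a*, and 1 called lower, beside a background of 1.76% higher and 9.01% lower. The calls of *Id1* and *Cdkn1a* rest on few UMIs, 6 in Ctrl and 7 in cKO for *Id1* and 21 and 23 for *Cdkn1a*. *Ccnd2*, the cyclin D2 gene, was at 72.9 CPM in Ctrl (534 UMIs) and 153 CPM in cKO (425 UMIs), a log2 ratio of 1.07. Of 11 receptors in MEP-like cells 0 were called higher and 2, *Kit* and *Flt3*, lower, and of 14 regulators 0 higher and 1 lower. The median log2 ratio of these receptors was -0.48, against -0.19 over all tested genes. *Kit* was the receptor gene of that class with at least 50 CPM that was called, at -1.06 (-1.34 to -0.79).

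In B-like cells (7.14% of all genes called higher, 19.8% lower) 4 of 14 receptors were called higher and 1, *Il7r*, lower. The higher receptors included *Csf2rb*, the shared beta chain of the GM-CSF receptor, at 61.7 and 158 CPM, and *Il3ra* at 16.5 and 57.4 CPM. Of 16 regulators 0 were called higher and 3 lower, and of 12 targets 1 was called higher and 2 lower. *Serpina3g*, a serine protease inhibitor, was at 26.1 and 120 CPM there. On the other side stood *Tfrc*, the transferrin receptor, with 60 UMIs in Ctrl and 1 in cKO, a log2 ratio of -3.45 (-8.77 to -0.91), and *Pias4* at 55.6 and 19.1 CPM. In plasma-like cells (3.02% and 28.2%) 1 of 10 receptors and 1 of 9 targets were called higher. Called lower were 1 receptor (*Kit*), 1 of 11 regulators (*Pias4*) and 2 targets (*Myc* and *Tfrc*). The higher genes were *Crlf2*, a chain of the TSLP receptor, at 25.2 and 54.8 CPM and *Serpina3g* at 20.1 and 52.8 CPM. The B-like and plasma-like classes of the cKO library held 32 and 36 cells. The part of conventional dendritic cells in the B-like levels was not tested.

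The genes of each list with the highest CPM over all gated cells were within 2-fold between the libraries in mNeu-like cells, except *Tfrc*. *Csf3r*, the G-CSF receptor, was at 1704 CPM there in Ctrl and 1314 CPM in cKO. The GM-CSF receptor chains *Csf2ra* and *Csf2rb* were at 411 and 243 CPM and at 259 and 354 CPM, so *Csf2ra* was lower and *Csf2rb* higher in cKO. *Ptpn6*, a phosphatase known to dampen cytokine receptor signalling, was at 403 and 297 CPM, *Jak1* at 304 and 257 CPM and *Cbl*, a ubiquitin ligase, at 190 and 135 CPM. Of the targets, *Ccnd3*, the cyclin D3 gene, was at 510 and 518 CPM and *Mcl1*, a survival gene of neutrophils, at 630 and 557 CPM. *Tfrc* had a log2 ratio of -1.98 (-2.58 to -1.41).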

How the data were processed

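Droplet 3′ libraries of 2 marrow mixtures, labelled Ctrl and Map4k4-cKO, were analysed. The authors deposited raw UMI counts per gene and barcode, without normalization, made with Cell Ranger 5.0.0 on mm10 per the submitters' processing notes. Barcodes with 200 to 9000 genes, at most 30% mitochondrial UMIs and at least 1000 UMIs were kept. A cell joined a class when its marker UMIs per 10000 passed that class's minimum, at least 3 markers were seen, and it led every other class by 1.5 times. No doublet caller was run, and 695 and 728 cells that passed a class without leading the others by 1.5 times were left out. UMIs were summed per class and library and given as CPM with exact Poisson intervals, shares with Clopper-Pearson intervals, and log2 ratios with exact conditional intervals, which cover counting error only. With 1 library per group no p-value was computed. A pair was called past 2-fold with at least 10 UMIs over both libraries. The members and lists were chosen with earlier results of these data known. Genes outside the 7 were named by their correlation with a member over 16 classes, or, from each list, if past 2-fold with at least 50 CPM or among the 3 highest over gated cells. Promoters came from RefSeq (GRCm38.p6) and positions from GENCODE (GRCm38). The scripts were tested on simulated data and used Python 3.11.15, numpy 2.4.6, scipy 1.17.1 and pandas 2.3.3. Alternatives covered the UMI and mitochondrial limits, the gate, the denominator, the scaling, thinning to 1000 UMIs, per-cell means, the fold and the UMI minimum.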

Additional observations from a re-analysis of the deposited data

How the results depend on the processing

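Of pairs of gene and class, 4 were called higher in cKO. The count was 2 when at least 20 UMIs were required (*Cish* and *Osm* in MEP-like cells) and 2 in cells of 3000 to 10000 UMIs, and 3 to 6 under the other settings. The 2 at 3000 to 10000 UMIs (*Pim1* in non-cycling imNeu-like and *Osm* in HSC/MPP-like cells) and the 5 with thinned cells were other pairs, since none of the 4 had enough UMIs there. The 0 pairs called lower became 2 under the stricter gate, 4 with cells thinned to 1000 UMIs, 2 with the mean of per-cell CPM, 10 with a fold of 1.5 and 5 in cells of 3000 to 10000 UMIs, a range chosen after seeing the data. The cause was not tested. Over 7 alternatives each, the log2 ratio of *Cish* in MEP-like cells ran from 1.95 to 3.42, of *Osm* in MEP-like cells from 0.99 to 1.95, of *Socs2* in HSC/MPP-like cells from 1.89 to 2.54 and of *Socs2* in B-like cells from 2.22 to 4.67. Of 437 recomputed log2 ratios, 365 moved by less than their counting interval, 72 by more, and 44 changed sign, none of them a called pair. The number of genes with the same highest class in both libraries was 4 to 6. *Map4k4* over gated cells was at 63.7 and 53.0 CPM (Ctrl and cKO) under the stricter gate, 85.1 and 72.1 CPM without haemoglobin, immunoglobulin, mitochondrial and ribosomal protein genes in the denominator, 106 and 82.7 CPM as the mean of per-cell CPM and 114 and 106 CPM in cells of 3000 to 10000 UMIs. It was not computed for thinned cells. No paired analysis was possible because each group has 1 library, and for the same reason no library could be left out. Depth left 12 of 63 pairs of gene and class under 10 UMIs, 6 of them of *Socs2*, 3 of *Cish*, 2 of *Osm* and 1 of *Stat5a*.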

Other observations

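*Socs3*, a feedback inhibitor of cytokine signalling best known downstream of STAT3, was singled out after its values were seen. It stood at 5.04 CPM (23 UMIs) in Ctrl and 23.1 CPM (36 UMIs) in cKO in HSC/MPP-like cells, a log2 ratio of 2.20 (1.40 to 3.02). In monocyte-like cells the levels were 5.01 and 12.2 CPM, and in mNeu-like cells 35.7 and 65.8 CPM, a log2 ratio of 0.88 (0.62 to 1.14). In B-like cells they were 12.2 CPM from 14 UMIs and 14.4 CPM from 3 UMIs.

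Over 16 classes with the UMIs of both libraries summed, the genes whose log2 level followed each member most closely, among 9965 genes, were found by Pearson's r. The classes share their libraries, and r is given as a description. *Stat5a* was followed by *Cluap1* at 0.94, *Rreb1* at 0.94 and *Spred1* at 0.93, all highest in HSC/MPP-like cells. *Stat5b* was followed by *Por* at 0.88, *Fbxl20* at 0.87 and *Rtp4* at 0.86, and *Jak2* by *Acss2* at 0.87, *Fam76a* at 0.85 and *St3gal1* at 0.83. For *Cish* they were *Ddc* at 0.80, *Zap70* at 0.78 and *Gm49602* at 0.78, and for *Socs2* *Hivep2* at 0.88, *Gimap6* at 0.85 and *Jakmip1* at 0.85. *Osm* was followed by *Tpcn2* at 0.88, *Ddx60* at 0.86 and *Il18rap* at 0.86. *Pim1* had the lowest values, with *Zfand6* at 0.73, *Pcmtd2* at 0.67 and *Igtp* at 0.67.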
